A study of Arabidopsis thaliana with 11 samples.

Results

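AT1G22480 and AT1G72230 are 2 Arabidopsis genes of the cupredoxin family, 2 of 13333 genes with a probe set that names only them. Each was measured by 1 probe set (261928_at and 259801_at) among the 22810 of the ATH1 array. They were chosen by their high measured signal in stem on these same arrays, so their levels in the tissues are given as a description, with no test. All plants were Col-0, a common laboratory strain. RNA was taken from the upper stem without siliques and pedicels at 29 days after germination (4 arrays), from open flowers with buds at 29 days (4 arrays) and from rosette leaves at 15 days (3 arrays). No genotype or treatment differed between the groups: the labels give a 16 h day of 125 umol m-2 s-1 for all, at 25 C in the light and 20 C in the dark. The array titles carried the code GH or GC, with 2 GH and 2 GC arrays in stem, 2 and 2 in flower, and 2 and 1 in leaf. The growth space was labelled a greenhouse for the GH leaf arrays and a controlled system for all other arrays, so what the code stands for is not settled. Leaf plants were also younger than those of stem and flower, so age and tissue cannot be told apart there. Among the GH arrays, the labelled growth space of leaf differed from that of stem and flower as well. The labels do not say whether arrays of a group came from separate plants, so spreads and p-values measure the variation between these samples, which may be technical.

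Cupredoxins are small copper-binding domains with a beta-barrel fold. In plants the family includes the phytocyanins, secreted or membrane-anchored proteins such as plantacyanin, the uclacyanins and the stellacyanins, in which a single copper ion can pass electrons, and early nodulin-like proteins, many of which have lost copper ligands. The same fold is repeated in the larger multicopper oxidases, among them the laccases that polymerise lignin in the walls of the xylem. For most Arabidopsis phytocyanins the electron partner is not known.

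The arrays matched their tissue labels by the marker genes looked at. The tapetum gene ATA27 had a signal of 937 to 1082 in flower and at most 17.0 on any stem or leaf array. The xylan gene IRX15 had 129 to 340 in stem and at most 3.46 elsewhere. The Rubisco activase gene RCA had 7446 to 9233 in leaf, while it also had 4367 to 6228 in stem and 1486 to 2815 in flower. Signals under 28.1, the 40th percentile of all values, are called dim here. The share of probe sets above this limit was 57.5% to 58.8% in stem, 62.5% to 64.6% in flower and 57.6% to 58.4% in leaf. The actin ratio of 3' to 5' probe sets, a sign of RNA integrity, reached 19.6 on array stem GH 1, while elsewhere it was 0.781 to 2.90. Tissue RNA mixes cell types, so fewer cells of a type and less RNA per cell cannot be told apart in any of these values.

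AT1G22480 was above the dim limit in stem alone. Its signal was 1470 and 1180 on the stem GH arrays and 1556 and 1793 on the stem GC arrays, a mean of 1500 ± 253 (SD, n = 4). In flower it was 10.8, 4.31, 3.79 and 3.22, and in leaf 12.9, 8.42 and 18.1, so that all 7 arrays of these tissues were dim. The stem arrays stayed within a narrow band, with an SD of 0.25 on the log2 scale, and none overlapped an array of another tissue. Set against the dim limit, the signal in stem was at least 52.8-fold higher than in flower and at least 52.8-fold higher than in leaf. Below the limit the values have no order, so flower and leaf cannot be ranked for this gene. AT1G22480 passed the filter on dim values (at least 3 of 11 arrays above the limit) through its stem arrays alone.

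AT1G72230 showed steps across the tissues. In stem its signal was 1404 and 1176 on the GH arrays and 710 and 1473 on the GC arrays, a mean of 1191 ± 345 (SD, n = 4). In flower it was 268 and 244 on the GH arrays and 138 and 296 on the GC arrays, a mean of 236 ± 69.3 (SD, n = 4). In leaf it was 26.2 and 23.5 on the GH arrays and 38.8 on the GC array, a mean of 29.5 ± 8.17 (SD, n = 3), with 1 of 3 arrays above the dim limit. The order of levels was stem, flower, leaf, and no array of one tissue overlapped an array of the next. On the log2 scale, stem minus leaf was 5.33 ± 0.32, stem minus flower 2.34 ± 0.29 and flower minus leaf 2.995 ± 0.32 (SE of the linear model across all probe sets). Flower thus lay at 56.2% of the log2 distance between leaf and stem. Since 2 leaf arrays were dim, the differences from leaf rest on values close to the limit. Stem minus leaf was 5.69 within the GH arrays and 4.72 within the GC arrays, where leaf has 1 array, and stem minus flower was 2.33 and 2.34. The stem minus leaf value of the GH arrays sets controlled-system stem against greenhouse leaf, so growth space and tissue cannot be told apart in it.

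The main contrast between these genes was in flower, where AT1G72230 was above the limit on all 4 arrays and AT1G22480 on none. In stem both had all arrays far above it. The stem arrays did not order the genes alike: stem GC 1 was the lowest array for AT1G72230 and the second highest for AT1G22480, and the highest for both was stem GC 2. For AT1G72230 the lowest flower array was flower GC 1. Without stem GH 1, the array with the high actin ratio, stem minus leaf of AT1G72230 was 5.22 and stem minus flower 2.24, and the lower bound for AT1G22480 was 5.73 on the log2 scale against 5.72 with it.

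**Figure D1:**
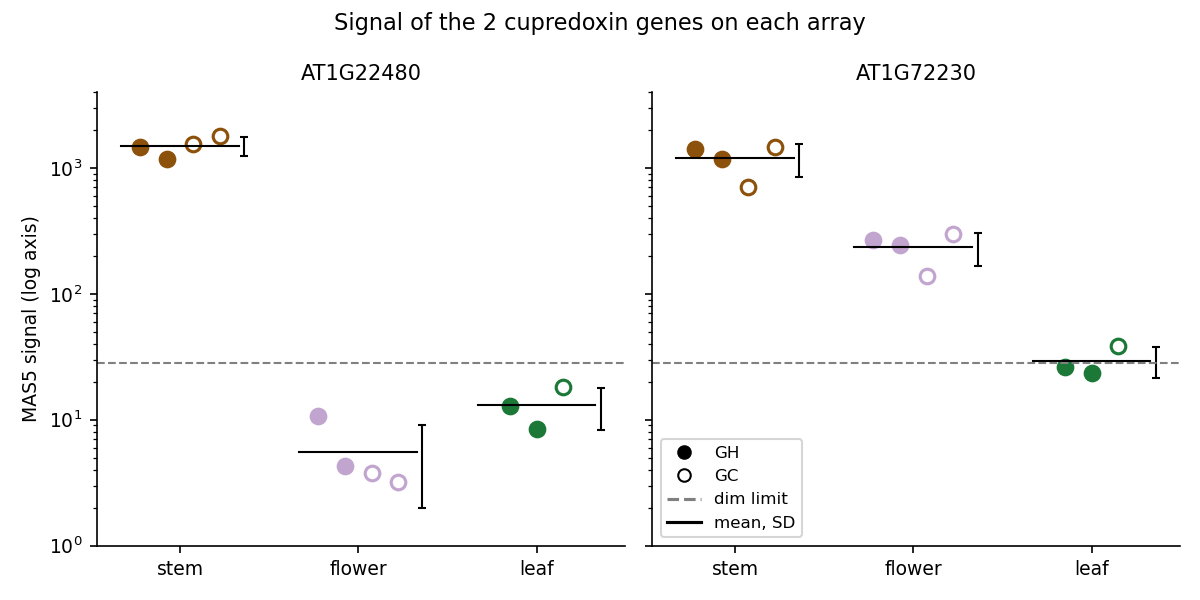
MAS5 signal (log axis) of AT1G22480 and AT1G72230 on each array of stem, flower and leaf, with filled points for GH, open points for GC, lines for means and bars for SD. The 4 stem arrays lie at 1180 to 1793 for AT1G22480 and 710 to 1473 for AT1G72230, while flower lies below the dim limit (dashed, 28.1) for AT1G22480 and at 138 to 296 for AT1G72230.

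How common such patterns were on the array bears on how these levels are read. Of 15718 probe sets that passed the filter, 8.25% had every stem array above every flower and leaf array, as both genes had. The pattern of AT1G22480, with all stem arrays above the dim limit and all others below it, was shared by 74 probe sets or 0.471%. The order seen for AT1G72230, stem over flower over leaf with no overlap, was shared by 378 or 2.40%. As the genes were chosen for their signal in stem, these shares only describe the array.

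The code GH or GC was not used to choose the genes, so it could be tested. In leaf the code goes with the labelled growth space, while in stem and flower it does not. Values over the tissues thus mix unlike contrasts. Neither gene passed limma's test in any of these comparisons. For AT1G72230, GH minus GC over the tissues was 0.09 on the log2 scale with a 95% interval of -0.46 to 0.64 (unadjusted p = 0.725, limma adjusted p = 0.927). Within stem the difference was 0.33 (-0.54 to 1.198, limma adjusted p = 0.768), within flower 0.34 (-0.53 to 1.21, limma adjusted p = 0.999) and within leaf, with a single GC array, -0.64 (-1.71 to 0.42, limma adjusted p = 0.778). The sign in stem and flower rests on 1 array each: without stem GC 1 the stem value was -0.20, and without flower GC 1 the flower value was -0.21. The effect in stem minus that in flower was -0.01 (-1.24 to 1.22, limma adjusted p = 0.997). AT1G22480 was measured above the limit only in stem, where GH minus GC was -0.34 (-1.29 to 0.61, unadjusted p = 0.438, limma adjusted p = 0.780). Its stem signal was lower on both GH arrays (1470 and 1180) than on both GC arrays (1556 and 1793). Over the tissues its fitted value was 0.03 (limma adjusted p = 0.982), though 7 of the 11 arrays behind it were dim. These intervals leave room for changes of more than 2-fold, upward in stem and flower and downward in leaf for AT1G72230, and downward in stem for AT1G22480. The interval of AT1G22480 in stem also takes in the spread of its dim flower and leaf arrays. Its SE was 0.42 in this model and 0.24 on the stem arrays alone, with no call there either (limma adjusted p = 0.811). The share of all probe sets called was 0.00636% over the tissues, 0.0827% in stem, 0.0254% in flower and 0.235% in leaf. For the difference between stem and flower limma called 0. There 761 of 15718 probe sets had an unadjusted limma p under 0.05, a share no larger than that threshold.

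**Figure D2:**
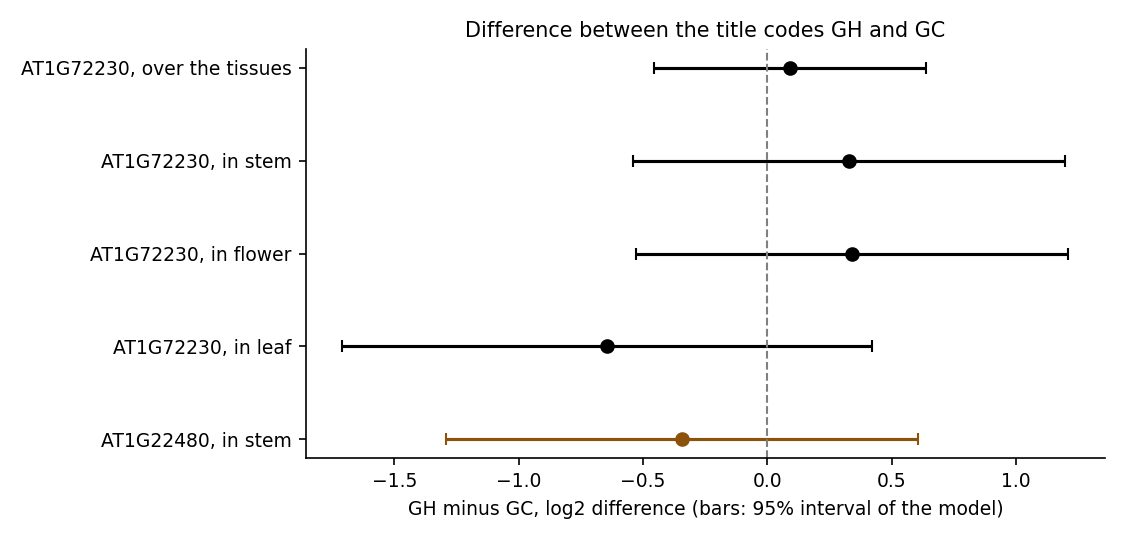
GH minus GC as a log2 difference, with 95% intervals of the linear model, for AT1G72230 over all tissues and within each, and for AT1G22480 in stem, the only tissue where it was above the dim limit. Every interval spans 0; the widest, for AT1G72230 in leaf, runs from -1.71 to 0.42.

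Relatives of both genes were looked at from a list of small cupredoxins put together by gene identity from general knowledge of the family. Of 39 other genes on the list, 8 lay on probe sets that name 1 gene and 4 of these passed the filter, so most of the family was not analysed here. Among those 4, AT5G26330 and AT3G27200 rose in stem against both other tissues, while ARPN fell. In stem minus leaf 2 rose and 1 fell, while 17.9% of all probe sets tested rose and 21.6% fell (39.6% called). In stem minus flower 2 rose and 1 fell, while 15.4% of all rose and 25.5% fell (40.9% called). In flower minus leaf 2 rose and 0 fell, while 21.3% of all rose and 14.4% fell (35.7% called); by limma's unadjusted p under 0.05, 0 fell as well. The median log2 difference of the 4 genes was 1.09, 1.07 and 0.34 in these comparisons, and that of all probe sets tested -0.07, -0.17 and 0.16.

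AT5G26330 was high in stem alone. Its signal in stem was 152 and 127 on the GH arrays and 146 and 146 on the GC arrays. In flower it was 30.4 to 33.1 and in leaf 32.2 to 39.2, all just above the dim limit. Stem minus leaf was 2.04 ± 0.18 (SE, limma adjusted p = 7.4e-06) and stem minus flower 2.19 ± 0.17 (limma adjusted p = 2.3e-06), with all 4 stem arrays higher than every other. Flower minus leaf was -0.15 ± 0.18 and did not pass (limma adjusted p = 0.559).

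AT3G27200 had the steps of AT1G72230 on a smaller scale. Its signal was 244, 210, 178 and 293 in stem, 70.6, 80.2, 54.5 and 110 in flower, and 43.7, 37.1 and 47.2 in leaf, again with no overlap between tissues. Stem minus leaf was 2.41 ± 0.25 (SE, limma adjusted p = 2.4e-05) and stem minus flower 1.58 ± 0.23 (limma adjusted p = 2.5e-04). Flower minus leaf was 0.83 ± 0.25 (limma adjusted p = 0.0218), a call that was lost after quantile normalization of the arrays (0.1105). It was also lost within the GC arrays (0.378) and without leaf GH 2 (0.0785), flower GC 2 (0.0506) or flower GH 2 (0.0593). Over all 23 alternatives its adjusted p was 0.00587 to 0.378.

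ARPN, which encodes plantacyanin, a phytocyanin studied in the pistil, was lowest in stem. Its signal was 25.9, 28.5, 14.1 and 29.1 in stem, where 2 of 4 arrays were above the dim limit. In flower it was 180, 266, 117 and 341, and in leaf 106, 92.3 and 64.8. Stem minus flower was -3.16 ± 0.33 (SE, limma adjusted p = 2.1e-05) and stem minus leaf -1.81 ± 0.35 (limma adjusted p = 0.00171, and 0.1455 within the GC arrays, the highest of 23 alternatives, the lowest being 4.8e-04). Flower minus leaf was 1.35 ± 0.35 (limma adjusted p = 0.0112, and 0.0559 without leaf GC 1 and 0.1715 within the GC arrays, over a range from 0.0051).

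AT2G31050 did not pass in any tissue comparison. Its signal was 45.7 to 65.3 in stem, 26.1 to 49.1 in flower and 46.9 to 52.0 in leaf, so that the tissues overlapped. Stem minus flower was 0.56 ± 0.22 (SE, limma adjusted p = 0.0624), and it passed after quantile normalization (0.00978), centring on the 75th percentile (0.0271), a floor at the dim limit (0.0312) or eBayes without the trend (0.0457), over a range up to 0.455. Flower minus leaf passed as lower after quantile normalization (0.0423), over a range up to 0.919. The 4 list genes left out by the filter were AT3G60270, AT4G01380, AT2G15780 and AT2G26720. The highest signal of AT3G60270 was 61.9, on stem GH 1, and AT2G26720 stayed under 1 on every array.

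Other copper proteins on named probe sets were few. SKU5, a membrane-anchored relative of the multicopper oxidases named for its effect on root growth direction, had 1468, 1622, 1294 and 1278 in stem against 392 to 772 in flower and 544 to 961 in leaf. It rose in stem over flower (1.38 ± 0.22 log2, limma adjusted p = 5.1e-04) and over leaf (1.08 ± 0.24, limma adjusted p = 0.00417, and 0.181 within the GC arrays, over a range from 1.1e-04). The laccase gene LAC16 did not pass the filter, with a highest signal of 10.4. CCS, the chaperone that loads copper into superoxide dismutase, was lower in stem than in leaf (-1.20 ± 0.38 log2, limma adjusted p = 0.0249). Its signal was 44.2, 61.4, 18.0 and 37.3 in stem and 85.5, 77.7 and 101 in leaf. The CCS call was lost without leaf GC 1 (0.146) or leaf GH 1 (0.0523), within the GH arrays (0.156) and within the GC arrays (0.0728), over a range from 0.0135.

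**Figure D3:**
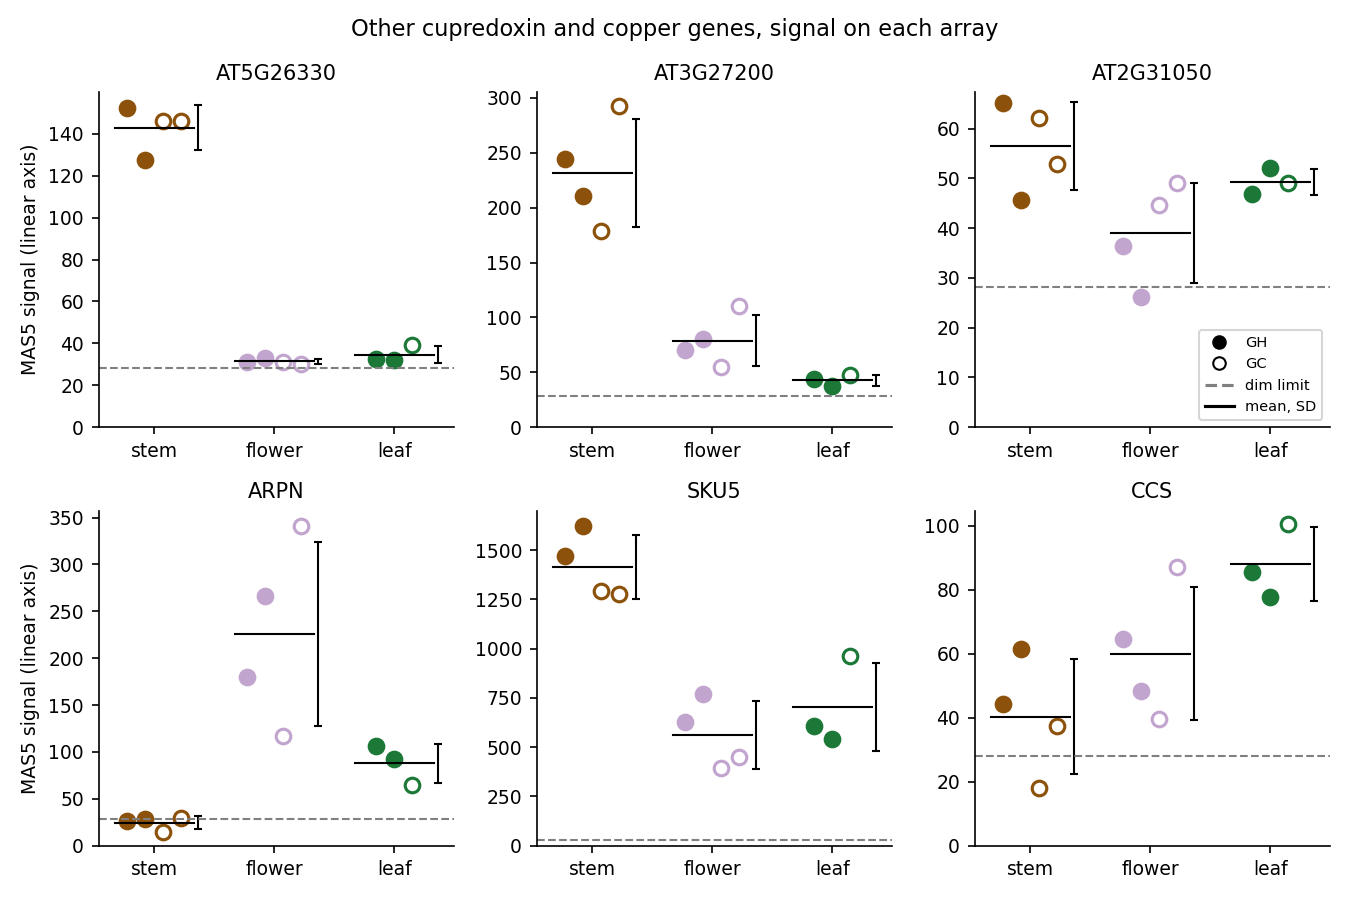
MAS5 signal (linear axes from 0) of 4 small cupredoxin genes, SKU5 and CCS on each array of stem, flower and leaf, with filled points for GH, open points for GC, lines for means and bars for SD. AT5G26330 and AT3G27200 are highest in stem, at 127 to 152 and 178 to 293, while ARPN is lowest there, at 14.1 to 29.1.

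Genes with a profile like that of each cupredoxin were found among 8582 other probe sets of 1 gene by the root mean square difference over the 11 arrays. Each log2 signal was first centred on its own mean, so a low value means a like shape and a like size of change. For AT1G22480 the nearest was the xylan gene IRX15 (0.926 log2 units), then AT3G23090, or WDL3, of a family that binds microtubules (0.994). AT1G80170, AT2G31930, AT5G05960 and AT5G40020 followed at 1.55 to 1.80, and the median over all probe sets was 3.85. All of them were high in stem, and in flower and leaf IRX15, AT3G23090 and AT2G31930 were dim on every array. IRX15 had 340, 129, 335 and 271 in stem. Since flower and leaf values of AT1G22480 are dim, its measure of likeness includes noise: with signals floored at the dim limit, 4 of these 6 genes stayed among the nearest 6, IRX15 not among them. In the other 14 settings tried, 5 or 6 stayed.

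For AT1G72230 the nearest were AT5G46115 (0.524), the expansin-like gene EXLA1 (0.529), AT1G69080 (0.549), AT1G79620 (0.601), the expansin-like gene EXLA2 (0.638) and AT4G21650 (0.651), against a median of 2.22. Expansins loosen the cell wall, while the function of the expansin-like genes is less clear. EXLA1 had 4278, 1931, 1897 and 2331 in stem, 224 to 900 in flower and 77.7 to 131 in leaf, the same order of tissues with no overlap. EXLA2 had 556, 758, 998 and 1208 in stem, 65.2 to 421 in flower and 10.8 to 20.4 in leaf, where it was dim. AT5G46115 and AT1G79620 were dim on every flower and leaf array, so flower and leaf cannot be ranked for them, and AT1G69080 was dim on every leaf array. With the floor at the dim limit 3 of the 6 stayed among the nearest 6, EXLA1, EXLA2 and AT4G21650. Without flower GC 1 3 also stayed, and in the other settings 4 to 6.

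The sets of nearest genes had none in common. AT1G72230 was number 65 in likeness to AT1G22480, at a difference of 2.65 log2 units, and the secondary wall genes IRX15-L and GUT2 were number 22 and 51. As 7 of the 11 values of AT1G22480 are dim, these ranks are loose: AT1G72230 was number 42 with the floor at the dim limit and 41 to 95 over all alternatives. In likeness to AT1G72230, AT1G22480 was only number 7421, and it was number 414 once signals were floored at the dim limit. The measure counts size of change as well as shape, so number 7421 does not mean an opposite pattern. Both genes were highest in stem. In the same ranking for AT1G72230, IRX15-L, GUT2 and IRX15 were number 292, 300 and 1553. These 3 genes are also the stem markers used here, so their levels in the tissues are given with no test. GUT2, a glucuronoxylan synthesis gene, had 203, 252, 638 and 595 in stem, 53.1 to 61.3 in flower and 60.9 to 66.4 in leaf (2.66 ± 0.26 log2 over flower and 2.46 ± 0.28 over leaf, SE). IRX15, which passed the filter through its stem arrays alone, was at least 8.93-fold higher in stem than in either. By code, GUT2 was lower on both GH than on both GC stem arrays (-1.45 ± 0.20 log2, SE, limma adjusted p = 0.0442). The number of probe sets called for the code in stem was unstable.

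**Figure D4:**
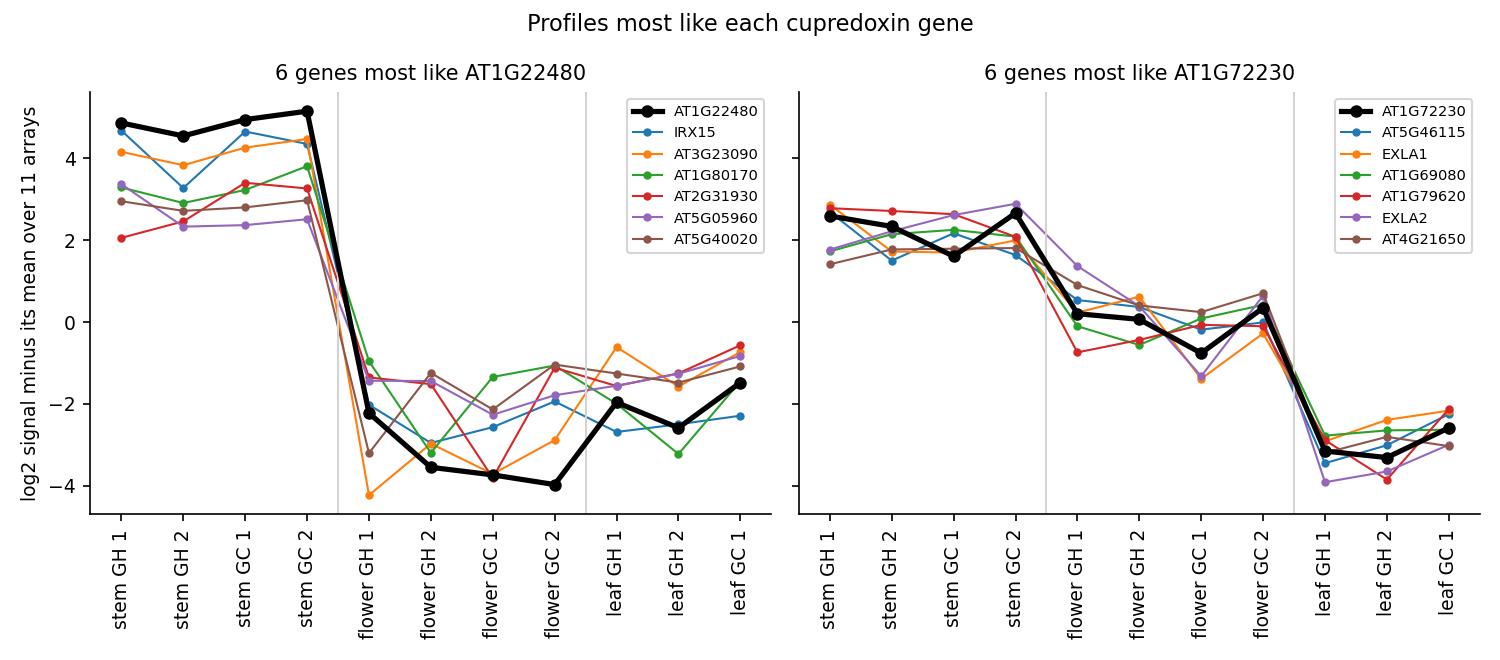
Log2 signal minus its mean over the 11 arrays, for AT1G22480 and AT1G72230 (black) and the 6 genes most like each (colours), with arrays ordered stem, flower, leaf. The genes like AT1G22480 are high in stem and low in both flower and leaf, while those like AT1G72230 lie lower in leaf than in stem. Values of AT5G46115 and AT1G79620 in flower and leaf are below the dim limit.

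The genes next to each cupredoxin on the chromosome were also looked at, up to 3 protein-coding genes on each side in the order given by RefSeq (assembly TAIR10.1). Of 12 such genes, 8 lay on named probe sets and 6 passed the filter. AT1G72220 passed only through its stem arrays, and AT1G72200 would not have passed without them. No count over the 6 is thus given, and AT1G72220 and AT1G72200 are described with no test. P-values of the other neighbours, given below, belong to genes added after the data were seen. AT1G72220, the gene on one side of AT1G72230, had 123, 89.3, 113 and 150 in stem, and was dim on every flower and leaf array (11.7 to 17.8 and 4.80 to 13.9). It was at least 4.16-fold higher in stem than in either. AT1G72200, on the same side, had 95.6, 56.1, 135 and 126 in stem, 19.4 to 36.7 in flower and 14.6 to 29.8 in leaf, with 1 of 4 flower and 1 of 3 leaf arrays above the dim limit. Every stem array of both genes lay above every flower and leaf array, as in 8.25% of all probe sets kept. Both genes needed their stem arrays to pass the filter, so this only describes them.

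On the other side of AT1G72230 the nearest gene, AT1G72240, did not pass (0.95 ± 0.79 log2 for stem minus leaf, limma adjusted p = 0.373). Farther on, AT1G72250 and the thionin gene THI2.1, which encodes a small antimicrobial peptide, fell in stem against flower. AT1G72250 had 20.8 to 36.1 in stem and 69.2 to 112.6 in flower (limma adjusted p = 2.5e-04). THI2.1 had 13.8 to 36.8 in stem and 2161 to 2338 in flower (limma adjusted p = 2.4e-08). Beside AT1G22480, AT1G22460 and AT1G22490 did not pass the filter. AT1G22510 was higher in stem, at 107 to 137, than in flower, at 44.5 to 62.5, and leaf, at 29.1 to 47.2 (limma adjusted p = 5.1e-04 and 1.5e-04).

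**Figure D5:**
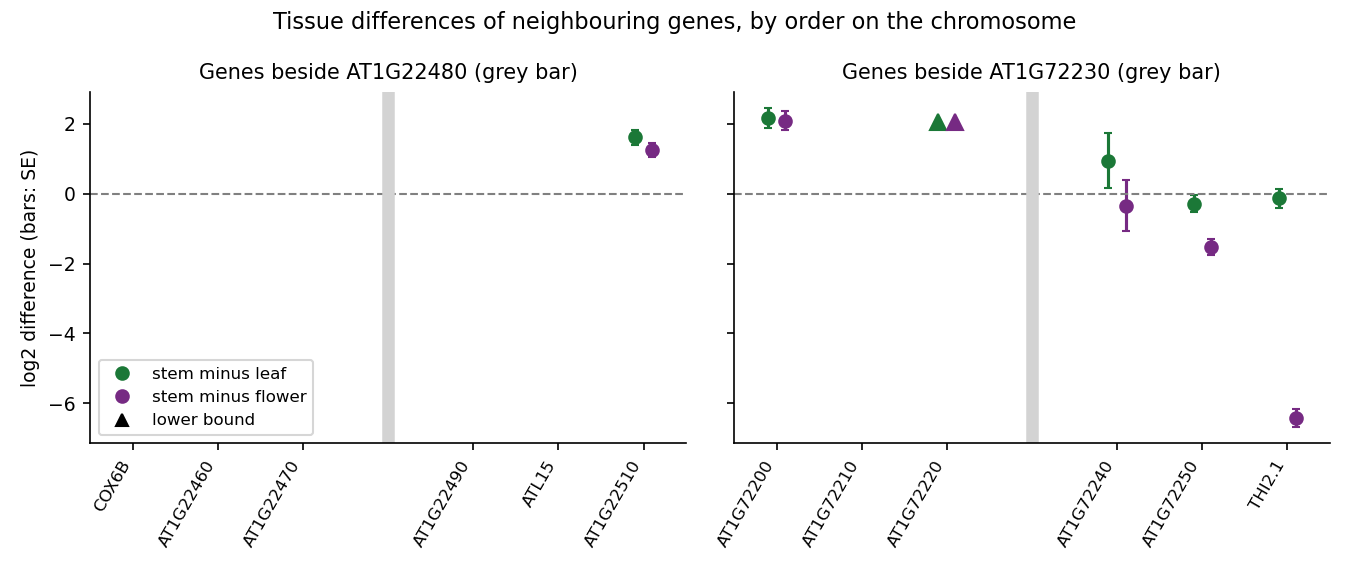
Log2 differences, stem minus leaf and stem minus flower, of up to 3 genes on each side of AT1G22480 and AT1G72230 (grey bars), in their order on the chromosome, with SE bars and triangles for lower bounds. AT1G72200 and AT1G72220 lie above 0 in both comparisons, while AT1G72250 and THI2.1 lie below 0 in stem minus flower; genes with no point have no named probe set or were filtered out.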

How the data were processed

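The files hold intensity on a linear scale, deposited as MAS5 signals of each probe set, with MAS5 named per the submitters' processing notes. Neither its version nor its scaling target is given in the labels. With 2% of values trimmed at each end, the mean signal of every array was 100.0. Precision is limited by the number of arrays. Signals were used as deposited, on the log2 scale. A probe set was kept if 3 or more of 11 arrays exceeded the dim limit of 28.1, which left 15718 of 22746 besides controls. Models were fitted with limma 3.58.1 (R 4.3.3; lmFit and eBayes, trended prior variance). P-values were adjusted by Benjamini-Hochberg across all kept probe sets, and 0.05 was the threshold. Tissue comparisons included the title code, and the GH comparison over tissues included tissue. Comparisons in single tissues used 1 mean for each tissue and code. Lower bounds set the stem mean of log2 signals against the dim limit.

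The members and gene lists were chosen with earlier results of these data known. The genes named are the members, the listed genes on probe sets naming 1 gene, and the 6 nearest profiles of each member. Neighbouring genes were added after the data were seen. Sequences were not used here, so planned motif and protein comparisons were not run. RefSeq positions served only to order neighbouring genes. The fits were tested on simulated data. Alternatives covered quantile normalization, centring on the 75th percentile, 2 other filters, a pseudocount of 8.86, a floor at the dim limit, no variance trend, no code term, a replicate block, GH or GC arrays alone, only the arrays compared, and each array left out.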

Additional observations from a re-analysis of the deposited data

Results flagged for a closer look

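In 23 groups of 4 arrays, 1 array stood far from the other 3 in 2 cases, by the gap to its nearest neighbour over the range of log2 signals. ARPN had 14.1 on stem GC 1 and 25.9 to 29.1 on the other stem arrays. GUT2 had 53.1 on flower GH 1 and 60.5 to 61.3 on the other flower arrays. Chance gives about 1 such case in 20 groups. Neither AT1G22480 in stem nor AT1G72230 in stem or flower had one. The groups did not cover every gene named here, so this count does not speak for all of them. Stem GH 1, with the actin ratio of 19.6, lay apart for RCA, at 6228 against 4367 to 4509 on the other stem arrays. It did so for HPR, at 2548 against 1458 to 1516, and for AT4G21650, at 834 against 1073 to 1099. For AT1G72200 flower GC 2 lay apart, at 36.7 against 19.4 to 19.7. The reason was not tested.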

How the results depend on the processing

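AT1G72230 kept its order of tissues in all 23 alternatives. Stem minus leaf was 4.72 and flower minus leaf 2.38 within the GC arrays, where leaf has 1 array. Over the arrays left out in turn they were 5.17 to 5.70 and 2.83 to 3.36, and stem minus flower 2.08 to 2.58. The log2 lower bounds of AT1G22480 were 5.34 with the pseudocount, which shrinks folds by construction, and 5.63 to 5.83 with arrays left out. No alternative brought a call of GH against GC for either gene. With arrays left out, AT1G72230 ranged from -0.10 to 0.34 over the tissues, -0.197 to 0.86 in stem, -0.21 to 0.89 in flower, -0.72 to -0.57 in leaf and -0.57 to 0.54 for the difference between stem and flower, and AT1G22480 from -0.29 to 0.31 over the tissues and -0.50 to -0.18 in stem.

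Counts of probe sets called for GH minus GC were unstable. Over the tissues 1 was called, and 0 after centring, without the trend or with a replicate block (0 to 13 with arrays left out). In stem it was 13, against 8 with quantile normalization, 6 with the pseudocount, 0 with the floor, 0 on the stem arrays alone, and 2 to 1155 with arrays left out, the highest without stem GH 2. In flower it was 4, against 9 with the pseudocount, 1 without the trend, 13 with a replicate block, 0 on the flower arrays alone and 0 to 10 with arrays left out. In leaf it was 37, against 73 with a replicate block, 449 on the leaf arrays alone and 3 to 86 with arrays left out. For the difference it was 0, against 4 without the trend and 0 to 210 with arrays left out, the highest without stem GH 2. The causes were not tested.

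Within the GC arrays 3027 probe sets were called in stem minus leaf, 4257 in stem minus flower and 2612 in flower minus leaf (main 6222, 6421 and 5617), and within the GH arrays 2976 in stem minus flower, with fewer arrays in each. Quantile normalization and centring moved the median of stem minus flower from -0.17 to 0.01 and -0.02, and that of flower minus leaf from 0.16 to -0.00 and 0.03. The share of calls that were higher became 48.3% and 48.8% in stem minus flower (37.6% as deposited), and 51.0% and 49.5% in flower minus leaf (59.7%). Of the small cupredoxins, 0 were lower in stem minus leaf within the GC arrays. In flower minus leaf 1 was higher and 1 lower with quantile normalization, 0 were higher within the GC arrays, and 1 to 2 with arrays left out.

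Same-numbered arrays of different groups did not deviate together across probe sets as a whole (r of -0.066 to 0.070). These values cannot show whether such arrays shared a step that acted on few genes, which was not tested. With the replicate block, AT1G72230 had 5.29 for stem minus leaf and AT1G22480 -0.34 for GH minus GC in stem.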

Other observations

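Among 8 cupredoxin and copper genes that passed the filter, 4 had their lowest stem signal on stem GC 1 and their lowest flower signal on flower GC 1: AT1G72230, AT3G27200, ARPN and CCS. They were picked after their values were seen. AT1G72230 had 710 and 138 on these arrays, AT3G27200 178 and 54.5, ARPN 14.1 and 117, and CCS 18.0 and 39.7. The same 4 genes showed it after quantile normalization. Of all probe sets kept, 6.50% did as deposited and 6.20% after quantile normalization. AT1G22480 did not: its signal of 1556 on stem GC 1 was its second highest. The actin 3' over 5' ratio was 1.25 on stem GC 1, where the other stem arrays had 1.22, 1.37 and 19.6. On flower GC 1 it was 1.83, the lowest in flower, where the others had 2.13 to 2.90. Whether RNA quality bears on these genes was not tested.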
